A study of Mus musculus with 4 samples.

Results

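Nodal signalling genes were followed across naive mouse embryonic stem cells that differed in the long noncoding RNA Lncenc1. The 9 genes were taken by symbol from the deposited table of 19840 genes. They code for ligands (Nodal, Gdf3), a co-receptor (Tdgf1), receptors (Acvr1b, Acvr2b), a signal transducer (Smad2) and feedback inhibitors (Lefty1, Lefty2, Smad7). All 9 were in the table and all 9 were abundant enough to have been tested there.

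The cells were kept in 2i/LIF, the ground state medium. They received a lentivirus with a hairpin against Lncenc1, named shLincenc1 in the labels, or with the control hairpin shCtrl, and then puromycin for 2 days. Each group holds 2 libraries of total RNA without ribosomal RNA. The labels tie no library to either of the 2 cell lines in the growth protocol, E14TG2a and R1, nor to either of the 2 hairpins designed per gene, nor to a separate culture. The p-values therefore measure only the spread between these libraries, which may be technical. Because the deposited table does not name its groups, they are called here Lncenc1-low (libraries L1 and L2) and Lncenc1-high (H1 and H2). Lncenc1 stood at 2126 normalized reads in L1 and 2121 in L2, against 6400 in H1 and 7250 in H2. The Lncenc1-low libraries are the shLincenc1 ones if that hairpin worked, and since the naming uses Lncenc1 itself, it is no check of the knockdown. Values per library are whole read counts recovered from the deposited means and divided by size factors. Recovered reads came to between 10362516 and 10894725 in L1, L2 and H2 and to 25898019 in H1, so H1 carries the smallest counting error. Every fold change below is Lncenc1-high over Lncenc1-low, as deposited, so that a negative one means a higher level in Lncenc1-low.

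Nodal is a secreted ligand of the TGF-beta family that patterns the epiblast and specifies mesoderm and endoderm in the embryo. It binds type I and type II activin receptors together with the EGF-CFC co-receptor Cripto, the product of Tdgf1, and the receptors phosphorylate SMAD2 and SMAD3, which enter the nucleus with SMAD4 and act with partners such as FOXH1. Among the genes switched on are those of the pathway's own inhibitors, the Lefty proteins and SMAD7, so that the signal limits itself. Mouse embryonic stem cells are known to signal through this pathway by ligands they make themselves.

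At an adjusted p under 0.05, DESeq2 in the authors' deposited table called 0 of the 9 genes and 215 of all 14070 tested genes (1.53%). Lefty1 and Lefty2 were 7.71-fold and 7.32-fold lower in library L2 than in the lowest of the other 3, while Nodal, the ligand they antagonise, was nearly level over all 4. At an unadjusted p under 0.05 there was 1 of the 9, Smad7, against 8.82% of all tested genes. In 3 of the 9 the groups did not overlap, namely Nodal and Smad2 higher and Smad7 lower in Lncenc1-low, against 41.3% of tested genes. The median deposited log2 fold change over the 9 genes was 0.23, and that over all tested genes was -0.01. With 2 libraries against 2, an exact permutation test of a single gene cannot give a two-sided p below 0.333, so none was used.

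**Figure D1:**
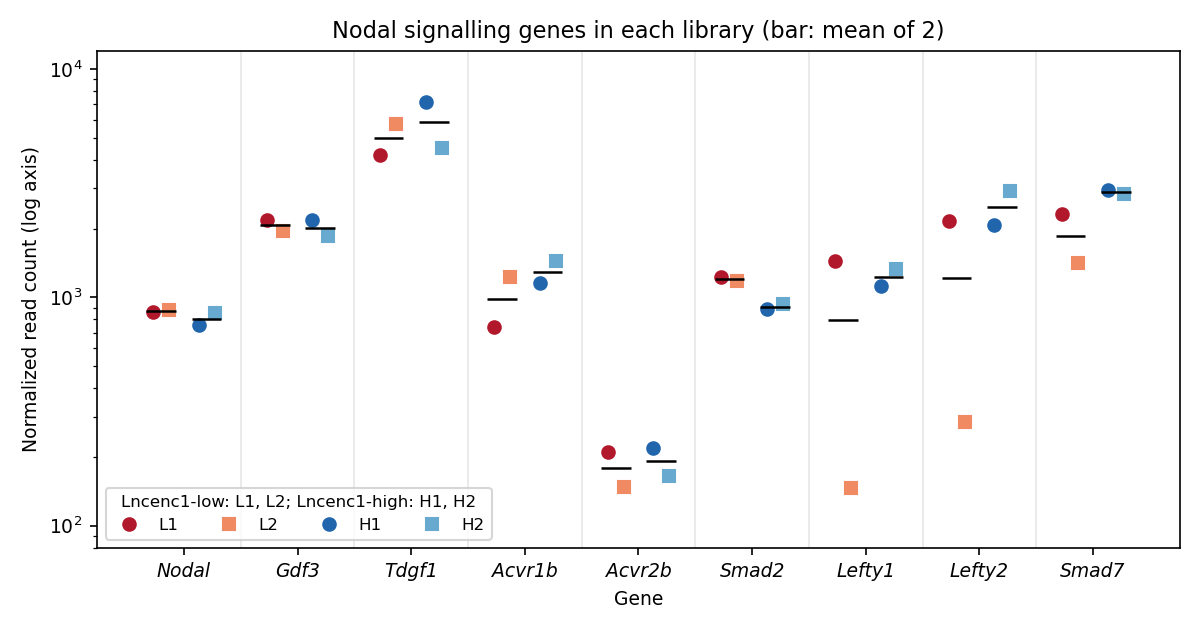
Normalized read counts of the 9 genes on a log axis, with Lncenc1-low libraries (L1, L2) left of Lncenc1-high libraries (H1, H2) for each gene and a bar at each group's mean of 2. Lefty1 and Lefty2 stand at 146 and 283 in L2 and at 1125 or more in the other 3 libraries.

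Neither ligand gene passed the test (DESeq2 adjusted p of 0.998 for Nodal and 0.999 for Gdf3 by the authors' deposited table). Nodal had 861 normalized reads in L1 and 877 in L2, against 754 in H1 and 849 in H2. The Lncenc1-low values were thus the higher ones by a narrow margin. They averaged 869 ± 11.4 (SD, n = 2), against 801 ± 67.6 (SD, n = 2) in Lncenc1-high, and the authors' deposited table gives a log2 fold change of -0.12 ± 0.23 (SE). Gdf3, a relative of Nodal that also needs Cripto, had 2190 normalized reads in L1 and 1953 in L2, against 2177 in H1 and 1858 in H2. The groups of Gdf3 overlapped, with a log2 fold change of -0.04 ± 0.20 (SE) by the authors' deposited table. The 95% limits were -0.56 to 0.32 for Nodal and -0.44 to 0.36 for Gdf3 on the log2 scale, and both intervals include 0.

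Tdgf1 was the most abundant member per length. It had 4196 normalized reads in L1 and 5763 in L2, against 7192 in H1 and 4511 in H2. Its groups overlapped, and the libraries of each group lay farther apart than the group means (log2 fold change 0.23 ± 0.25, SE, in the authors' deposited table). Of the 50-base stretches in its longest coding transcript, 12.5% also occur in the processed copy Tdgf1-ps1, so part of its reads may be split with that copy or lost.

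Neither receptor gene passed the test. Acvr1b, the type I receptor also called ALK4, had 738 normalized reads in L1 and 1230 in L2, against 1149 in H1 and 1443 in H2. L1 was the low library here and L2 lay between the Lncenc1-high libraries. The log2 fold change of Acvr1b was 0.40 ± 0.27 (SE) with a DESeq2 adjusted p of 0.794 in the authors' deposited table. The refits gave 0.074 without L1 and 0.81 without L2, and Acvr1b passed in neither. Acvr2b, a type II receptor, was the scarcest member, with 211 normalized reads in L1 and 148 in L2, against 219 in H1 and 166 in H2. Its log2 fold change was 0.10 ± 0.38 (SE) by the authors' deposited table.

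Smad2, the receptor-activated transducer, was higher in both Lncenc1-low libraries without passing the test. It had 1231 normalized reads in L1 and 1183 in L2, against 891 in H1 and 931 in H2. Libraries of 1 group lay close together and the groups did not overlap. The means were 1207 ± 34.2 (SD, n = 2) in Lncenc1-low and 911 ± 28.0 (SD, n = 2) in Lncenc1-high. The authors' deposited table gives Smad2 a log2 fold change of -0.41 ± 0.21 (SE), an unadjusted p of 0.0562 and a DESeq2 adjusted p of 0.588. Without any 1 library the fold change stayed between -0.44 and -0.37.

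Lefty1 and Lefty2 are secreted antagonists that bind Nodal or its co-receptor and are among the best known targets of the pathway. Lefty1 had 1439 normalized reads in L1 and 146 in L2, against 1125 in H1 and 1331 in H2. L1 was thus the highest of the 4 libraries and L2 the lowest, although both belong to Lncenc1-low. Lefty2 had 2149 normalized reads in L1 and 283 in L2, against 2071 in H1 and 2907 in H2. L1 lay within the range of Lncenc1-high, and L2 lay far below. The 2 low values rest on 118 reads of Lefty1 and 229 reads of Lefty2, well above the 3 reads taken as a floor. L1 exceeded L2 by 9.87-fold for Lefty1 and by 7.59-fold for Lefty2. For comparison, L1 over L2 was 0.98 for Nodal and 1.65 for Smad7.

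The group comparison of both Lefty genes is set by this split. Lefty1 averaged 793 ± 915 normalized reads (SD, n = 2) in Lncenc1-low and 1228 ± 146 (SD, n = 2) in Lncenc1-high, while Lefty2 averaged 1216 ± 1320 (SD, n = 2) in Lncenc1-low and 2489 ± 591 (SD, n = 2) in Lncenc1-high. The authors' deposited table gives log2 fold changes of 0.63 ± 1.34 (SE) for Lefty1 and 1.03 ± 1.24 (SE) for Lefty2. The 95% limits were -2.0 to 3.26 for Lefty1 and -1.40 to 3.47 for Lefty2, so differences of several fold in either direction lie within the error. Refitted without L2, the log2 fold changes were -0.23 ± 1.64 (SE) for Lefty1 and 0.21 ± 1.52 (SE) for Lefty2. Without L1 they were 3.07 ± 1.65 (SE) for Lefty1 and 3.14 ± 1.52 (SE) for Lefty2, and neither gene passed (adjusted p of 0.538 for Lefty1 and 0.454 for Lefty2 in the negative binomial refit). Voom gave 1.34 ± 0.74 (SE) for Lefty1 and 1.58 ± 0.68 (SE) for Lefty2, with adjusted p of 0.583 for Lefty1 and 0.490 for Lefty2.

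**Figure D2:**
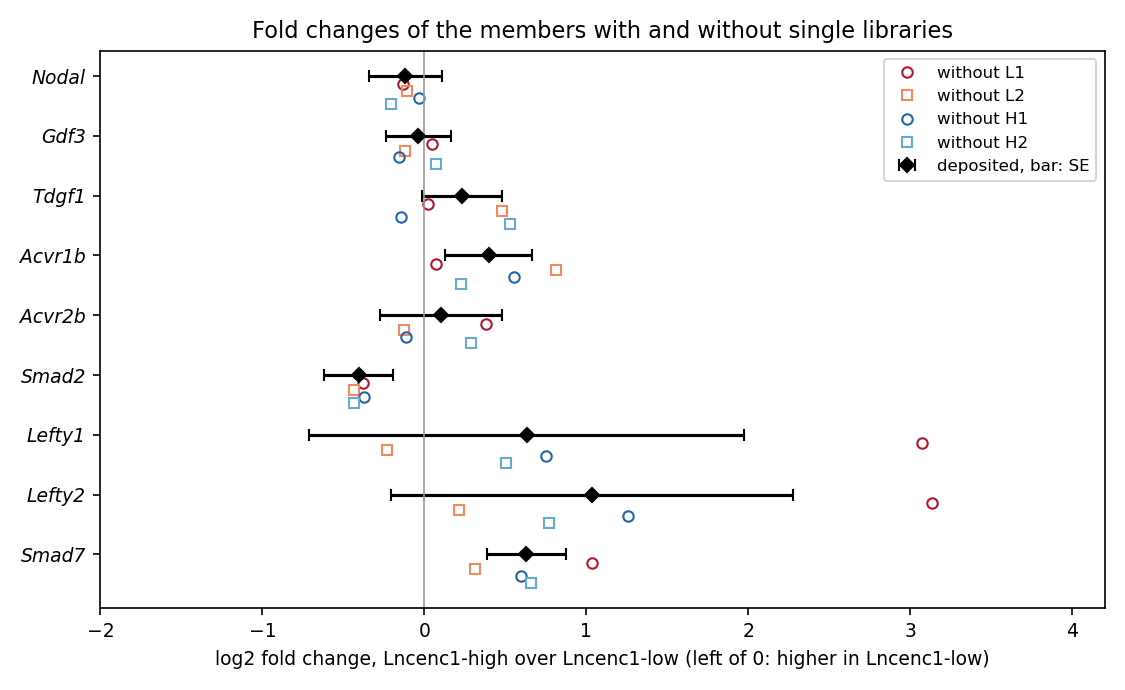
Log2 fold changes, Lncenc1-high over Lncenc1-low, of the 9 genes in the deposited table (black, bar: SE) and in refits without 1 library each (open symbols). Lefty1 moves from -0.23 without L2 to 3.07 without L1, while Smad2 stays between -0.44 and -0.37.

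The sequences of the pair bear on whether their reads can be told apart. Lefty1 and Lefty2 lie near each other on mouse chromosome 1, and their coding sequences are 1107 bases each and 91.9% identical. Of the 50-base stretches in the longest coding transcript, 17.9% of those of Lefty1 and 11.6% of those of Lefty2 also occur in the other gene. The window of 90 coding bases that differs most, bases 35 to 124 in both genes, is shown 5′ to 3′ from GENCODE M21 transcripts (build GRCm38, forward strand), with the 27 differing bases in capitals:
Lefty1: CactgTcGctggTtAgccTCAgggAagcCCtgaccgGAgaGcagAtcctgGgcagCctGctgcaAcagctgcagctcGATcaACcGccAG
Lefty2: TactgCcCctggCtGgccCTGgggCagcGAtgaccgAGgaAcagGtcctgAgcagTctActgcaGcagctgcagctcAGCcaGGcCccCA
Most of both transcripts is thus specific to its gene at a length of 50 bases, while the sources used here do not give the read length of the libraries. Reads of the shared stretches may be split between the pair or lost, so the 2 levels are not fully separate measurements. Per kilobase of exon, Lefty2 over Lefty1 was 1.01 in L1, 1.31 in L2, 1.24 in H1 and 1.47 in H2. The pair kept a like ratio in the library where both were low. Nodal over Lefty1 per kilobase was 0.50 in L1 and 5.05 in L2, against 0.56 in H1 and 0.54 in H2.

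The spread of the Lefty genes was unusual for their abundance. The dispersion that each deposited error implies stands in the fitted model for variation between libraries beyond counting error. It was 0.865 for Lefty1 and 0.741 for Lefty2. This fitted value need not equal a gene's own spread. Smad2, for one, had 0.0208, although its libraries lay close together within each group. Among the 5569 genes whose mean reached 500 normalized reads, 0 had a larger dispersion than Lefty1. Only 1, Lefty1 itself, had a larger one than Lefty2. The other 7 members lay between 0.0193 for Gdf3 and 0.0627 for Acvr2b. Within Lncenc1-low, 13 of 11001 genes whose mean reached 50 normalized reads had an L1 over L2 ratio as high as that of Lefty1, and 24 had one as high as that of Lefty2, these genes included.

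**Figure D3:**
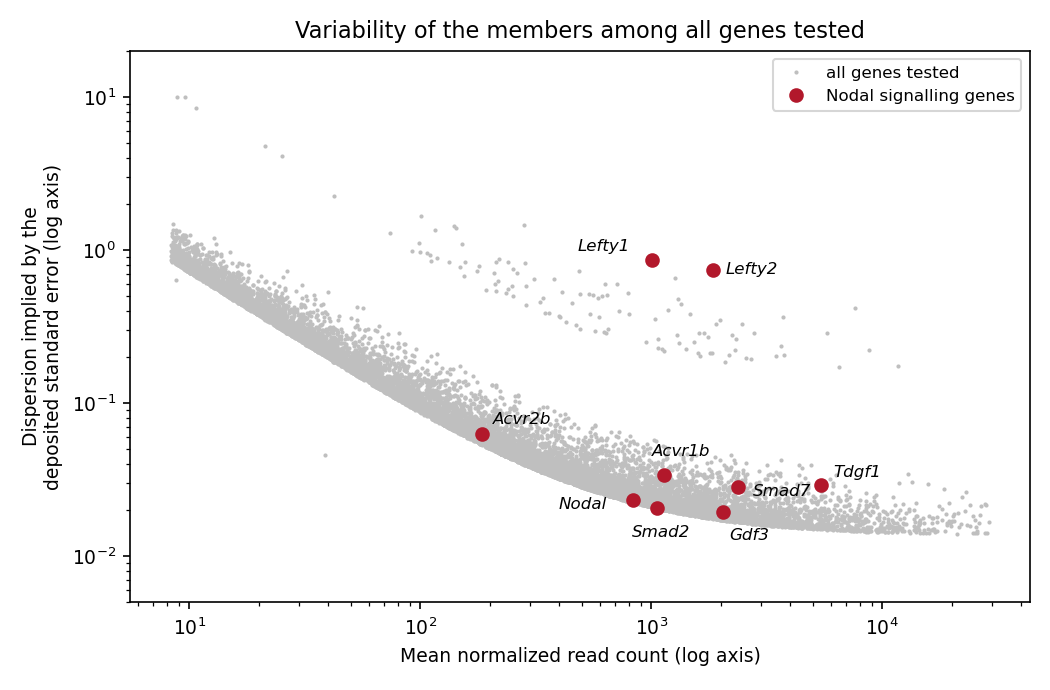
Dispersion implied by the deposited standard error against the mean normalized read count, both on log axes, for all tested genes with recovered counts (grey) and the 9 members (red). Lefty1 and Lefty2 lie at 0.865 and 0.741, above the other 7 members at 0.0193 to 0.0627.

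Library L2 stood apart for other genes too. In L2, 28 of 11001 genes (0.255%) were at least 4-fold below each of the other 3 libraries and 30 were at least 4-fold above each. The same counts were 0 and 3 in L1, 3 and 0 in H1 and 0 and 0 in H2. Of the 9 members, Lefty1 and Lefty2 were among the 28, and no member was among the genes above. The labels do not say whether L1 and L2 differ in hairpin, cell line or culture.

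Smad7, an inhibitory SMAD that blocks the type I receptors, was lower in both Lncenc1-low libraries without passing the test. It had 2319 normalized reads in L1 and 1406 in L2, against 2944 in H1 and 2820 in H2. The groups did not overlap, and L2 was again the lowest. The authors' deposited table gives Smad7 a log2 fold change of 0.63 ± 0.24 (SE), an unadjusted p of 0.00998 and a DESeq2 adjusted p of 0.255. The size of the Smad7 difference depended on which Lncenc1-low library was left out. Without L1 the refit gave 1.04 ± 0.30 (SE), and without L2 it gave 0.31 ± 0.30 (SE). Each of these refits leaves 1 Lncenc1-low library alone, with its spread taken from the full set. The refits called 1 of the 9 genes without L1, where 1.39% of all genes were called. They called 0 of the 9 without L2, without H1 and without H2, where 0.342%, 0.386% and 0.549% of all genes were called. Limma voom called 0 of the 9 and 0.0428% of all genes.

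Per kilobase of exon the members fell into an order with overlaps. Tdgf1 led at 1600 to 2743 normalized reads per kilobase over the 4 libraries. Gdf3 followed at 767 to 904, Smad7 at 311 to 651 and Nodal at 360 to 419, while Lefty2 covered 108 to 1113 and Lefty1 83.0 to 819. The ranges of Smad7, Nodal and both Lefty genes overlapped, so their order is not fixed beyond the spread, and Gdf3 was apart from Smad7 and Nodal but not from the Lefty genes. Acvr1b at 167 to 327, Smad2 at 101 to 140 and Acvr2b at 37.8 to 55.7 came below Nodal without overlap among themselves. The L2 values of the Lefty genes reached into the range of Smad2 or below it, and that of Smad7 reached into the range of Acvr1b. In bulk RNA a level per cell and the share of cells that express a gene cannot be told apart.

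Genes whose levels over the 4 libraries were most like those of a member were ranked by the distance between centred log2 values, over 11001 genes. Nearest to Nodal were Nudcd3 at 0.0109, Akt1, a kinase of growth factor signalling, at 0.0178 and Asap1 at 0.0212. With so flat a profile many genes lie near. Nearest to Lefty1 were Adgrg5 at 0.176, Acsm4 at 0.343 and Lefty2 at 0.396. Adgrg5, an adhesion G protein-coupled receptor, had 152 normalized reads in L1 and 12.4 in L2, against 104 in H1 and 133 in H2. Acsm4 had 276 in L1 and 32.1 in L2, against 194 in H1 and 220 in H2. These likenesses rest on 4 libraries and, for Lefty1, on the low value of L2.

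The rest of the pathway was read from 8 lists of 77 further genes, of which 59 were tested. DESeq2 in the authors' deposited table called 2 of the 59, both lower in Lncenc1-low, against 1.53% of all tested genes, of which 144 were higher and 71 lower in Lncenc1-low. The called genes were Fstl1 and Id4. The median log2 fold change of the 59 was 0.03.

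Extracellular antagonists besides the Lefty genes held the first of these. Fstl1, a secreted follistatin-like glycoprotein, had 805 normalized reads in L1 and 940 in L2, against 2511 in H1 and 2672 in H2. The groups were far apart and each was narrow. The authors' deposited table gives Fstl1 a log2 fold change of 1.57 ± 0.21 (SE) with a DESeq2 adjusted p of 2.48e-11. Fstl1 passed without any 1 library (adjusted p from 3.76e-08 to 7.35e-06 in the refits) and by voom (adjusted p = 0.0348). The log2 fold changes by the authors' deposited table were 0.76 ± 0.48 (SE) for Fst, which codes for the activin-binding protein follistatin, and 1.39 ± 0.72 (SE) for Dand5, a Nodal antagonist of the Cerberus family, both short of the threshold. Fst had 72.7 normalized reads in L1 and 200 in L2, against 163 in H1 and 301 in H2, so its groups overlapped. Dand5 had 27.1 in L1 and 22.2 in L2, against 37.0 in H1 and 94.1 in H2. H2 was thus far above the rest for Dand5.

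In the BMP branch, the sister pathway that signals through SMAD1, SMAD5 and SMAD9, 1 of 11 tested genes was called, against 1.53% of all tested genes. Id4, a helix-loop-helix inhibitor, had 177 normalized reads in L1 and 65.5 in L2, against 377 in H1 and 340 in H2, with a log2 fold change of 1.56 ± 0.42 (SE) and a DESeq2 adjusted p of 0.0225 in the authors' deposited table. Both Lncenc1-low libraries were lower, and L2 was the lowest. In the refits Id4 passed without L1 (2.45, adjusted p = 0.00163) but not without L2 (1.02, adjusted p = 0.885), without H1 (1.48, adjusted p = 0.287) or without H2 (1.63, adjusted p = 0.159). It did not pass by voom either (1.70, adjusted p = 0.257). Id2 had 8.63 normalized reads in L1 and 68.0 in L2, against 17.5 in H1 and 7.53 in H2. It rested on L2 alone, in the direction opposite to Id4. The ligand gene Bmp4 had a log2 fold change of -0.54 ± 0.36 (SE) by the authors' deposited table, short of the threshold.

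DNA-binding partners and nuclear regulators of SMAD2 and SMAD3 held no called gene. By DESeq2 (the authors' deposited table), 0 of 12 SMADs and partners passed, against 1.53% of all tested genes. Voom called 0 of the 12, against 0.0428% of all genes. At an unadjusted p under 0.05 there was 1 of the 12, against 8.82% of all tested genes. This was Foxh1, the winged-helix partner of SMAD2, with 800 normalized reads in L1 and 1143 in L2, against 634 in H1 and 566 in H2. Both Lncenc1-low libraries were higher, L2 most of all. The log2 fold change of Foxh1 was -0.69 ± 0.26 (SE) with a DESeq2 adjusted p of 0.203 in the authors' deposited table, and the refit without L2 gave -0.41 ± 0.31 (SE). Zfyve9, which anchors SMADs for the receptor, and Smad9 had 0.50 ± 0.28 (SE) and 0.83 ± 0.65 (SE) by the authors' deposited table. Smad9 had 87.5 normalized reads in L1 and 19.8 in L2, against 95.5 in H1 and 95.3 in H2. Its far lower value was that of L2 alone. Smad3 had 797 normalized reads in L1 and 381 in L2, against 444 in H1 and 447 in H2, so the high value was that of L1 alone.

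Of 15 attenuators of the signal, 0 passed by DESeq2 (the authors' deposited table), against 1.53% of all tested genes. Voom called 0 of the 15, against 0.0428% of all genes. An unadjusted p under 0.05 was found for 1 of the 15, against 8.82% of all tested genes. Skil, a SMAD-binding repressor that the pathway also switches on, had 1099 normalized reads in L1 and 1137 in L2, against 1757 in H1 and 1589 in H2. Unlike for the Lefty genes, L1 and L2 were alike and both below Lncenc1-high. The log2 fold change of Skil was 0.58 ± 0.21 (SE) with a DESeq2 adjusted p of 0.164 in the authors' deposited table, and 0.61 ± 0.25 (SE) in the refit without L2. The ubiquitin ligases Rnf111 and Smurf1 had -0.31 ± 0.22 (SE) and -0.32 ± 0.24 (SE) by the authors' deposited table.

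Known targets of Nodal that mark mesendoderm were mostly scarce. By DESeq2 (the authors' deposited table), 0 of the 10 tested in that list passed, members and Skil included, against 1.53% of all tested genes. Voom also called 0 of the 10, against 0.0428% of all genes. Skil and Smad7 were the 2 with an unadjusted p under 0.05, against 8.82% of all tested genes. Eomes, a T-box factor, had 50.5 normalized reads in L1 and 48.2 in L2, against 41.6 in H1 and 72.8 in H2. Mixl1, a homeobox gene, had 0 reads in L1 and in L2, against 4 in H1 and 6 in H2, and was not tested. Otx2, more abundant, had 211 normalized reads in L1 and 32.1 in L2, against 167 in H1 and 65.2 in H2. Its groups overlapped, and L2 was the lowest.

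**Figure D4:**
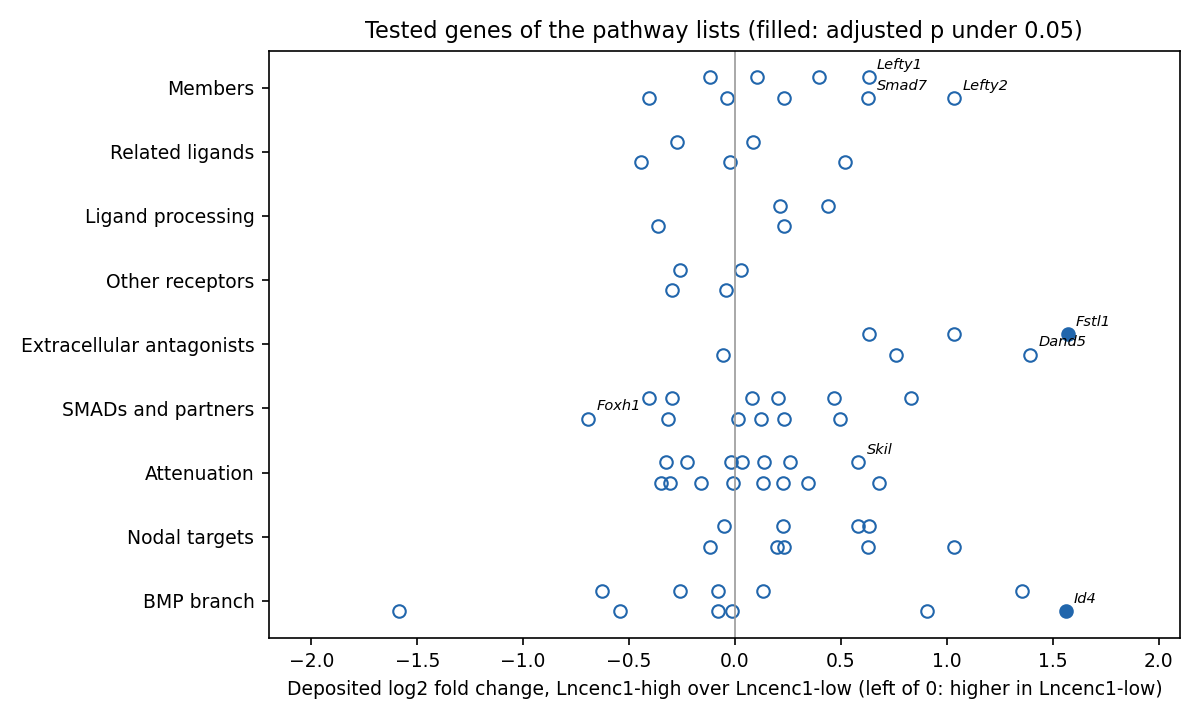
Deposited log2 fold changes, Lncenc1-high over Lncenc1-low, of the tested genes in the member list and the 8 pathway lists except 1 target gene that did not pass, with filled circles for an adjusted p under 0.05. Fstl1 at 1.57 and Id4 at 1.56 are the 2 filled circles, and several genes stand in more than 1 list.

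Related ligands, their processing enzymes and other receptors had 13 tested genes. DESeq2 (the authors' deposited table) called 0 of the 13, against 1.53% of all tested genes. By voom 0 passed, against 0.0428% of all genes. An unadjusted p under 0.05 was found for 0 of the 13, against 8.82% of all tested genes. Pcsk6, a proprotein convertase that cleaves the Nodal precursor, had 1519 normalized reads in L1 and 1639 in L2, against 1807 in H1 and 1858 in H2. The log2 fold changes of Furin and Pcsk7, further convertases, were 0.44 ± 0.53 (SE) for Furin and -0.36 ± 0.33 (SE) for Pcsk7 by the authors' deposited table. The ligand genes Gdf15, Gdf11 and Inhbb, which codes for an activin subunit, had 0.52 ± 0.66 (SE), -0.44 ± 0.66 (SE) and -0.27 ± 1.14 (SE) by the authors' deposited table. Tgfbr1, the type I receptor of TGF-beta, had 1034 normalized reads in L1 and 2021 in L2, against 1214 in H1 and 1273 in H2. Its high value was again that of L2. Tgfbr3, coding for betaglycan, had -0.26 ± 0.42 (SE), and Acvr2a, the other type II activin receptor, had 0.03 ± 0.28 (SE) by the authors' deposited table. Inhba, coding for the other activin subunit, reached at most 2.51 normalized reads in a library, below the floor of 3 reads.

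Markers matched the labelled cell type. All 10 naive stem cell markers were in the table, and their summed normalized reads were 71387 in L1 and 67793 in L2, against 85193 in H1 and 81008 in H2. DESeq2 and voom called 0 of these 10, against 1.53% of all tested genes by DESeq2 and 0.0428% by voom. An unadjusted p under 0.05 was found for 3 of them, against 8.82% of all tested genes, and 9 lay lower in both Lncenc1-low libraries, where 41.3% of all tested genes did not overlap in either direction. Markers of other cell types were scarce apart from a few genes, among them Dnmt3b, Zic2 and Lama1. The sums of 5 of 6 primed epiblast markers were 3324 in L1 and 4497 in L2, against 2846 in H1 and 2764 in H2. Most of this was the DNA methyltransferase Dnmt3b, with 2147 in L1 and 4085 in L2, against 1749 in H1 and 2049 in H2. Zic2, Otx2 and Pou3f1 went the other way and were each lowest in L2. Zic2 had 944 in L1 and 372 in L2, against 908 in H1 and 640 in H2. Fgf5 was at 0 in L1 and L2. For 8 primitive endoderm markers, mostly the laminin gene Lama1, they were 2579 in L1 and 1170 in L2, against 3292 in H1 and 4358 in H2. By the authors' deposited table, Lama1 (1.13 ± 0.64, SE) and Gata4 (0.87 ± 0.91, SE) had positive log2 fold changes. The other 3 of the 5 tested were negative. These were -1.06 ± 0.55 (SE) for Col4a1, -1.79 ± 1.16 (SE) for Dab2 and -0.21 ± 0.82 (SE) for Pdgfra. DESeq2 called 0 of these 5. Col4a1 was highest in L2, with 89.96 in L1 and 108 in L2, against 60.6 in H1 and 32.6 in H2. For 5 fibroblast markers the sums were 375 in L1 and 222 in L2, against 161 in H1 and 137 in H2. L2 thus had the lowest naive sum. It also had the lowest primitive endoderm sum, which followed Lama1, and the highest primed sum, which followed Dnmt3b. The part of these markers in the Lefty levels was not tested.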

How the data were processed

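Total RNA was depleted of ribosomal RNA and made into strand-specific libraries, per the labels' protocols. TopHat2, HTSeq, DESeq2 1.8.2 and build mm9 are named for the authors' work in the submitters' processing notes, without settings. The deposited signal is a mean count over 4 libraries after division by size factors. Log2 fold changes, their errors, the Wald score and each p-value are the authors' own, per the file headers. Gene symbols were matched by Ensembl identifier for 19707 of 19840 genes.

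The edgeR test planned for count tables was not run here, because no library has a column of its own. The authors' deposited DESeq2 test, adjusted over all 14070 tested genes, is the main result. The members, lists and tests were chosen with earlier results of these data known.

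Counts per library were recovered for 19808 genes (99.8%), all members included, as the whole-number combination that gives the deposited mean to 15 significant digits and the deposited fold change. For 13896 of 14033 tested genes the refitted log2 fold change lay within 0.00001. The 32 genes without recovered counts hold 14.6% of the summed means. Size factors were 0.811 in L1, 0.809 in L2, 1.95 in H1 and 0.797 in H2, and 3 reads equal 3.70, 3.71, 1.54 and 3.76 normalized reads. Floors cover counting error only. Refits were negative binomial Wald tests at the dispersion each deposited error implies, which those without 1 library kept, so a library left alone in its group takes its spread from the full set. Limma 3.58.1 gave voom. Recovery and tests were tested on simulated data. Named were all members, called pathway genes, the 3 with smallest p per pathway list, and the 3 genes nearest Nodal and Lefty1. A gene and a sequence within the rule are not reported here. Smad3, Eomes, Mixl1, Otx2, Inhba and the markers Fgf5, Dnmt3b, Zic2, Pou3f1, Lama1, Col4a1, Dab2, Gata4 and Pdgfra were named after their values were seen. Exon lengths are those of GENCODE M21.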

Additional observations from a re-analysis of the deposited data

How the results depend on the processing

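Of 36 fold changes of the 9 genes in the refits without 1 library, 29 kept direction and side of the threshold, 6 changed sign and 1, Smad7 without L1, newly passed. All 18 under library totals and voom kept both, though voom gave larger fold changes for Lefty1 (1.34) and Lefty2 (1.58). Over the fits without 1 library the log2 fold change ranged from -0.23 to 3.07 for Lefty1, from -0.16 to 0.072 for Gdf3, from -0.14 to 0.53 for Tdgf1, from 0.074 to 0.81 for Acvr1b, from -0.13 to 0.38 for Acvr2b and from 0.31 to 1.04 for Smad7. The median of the 9 ranged from -0.11 to 0.28. The members called ranged from 0 to 1, the further pathway genes called from 1 to 2 and all genes called from 48 to 195. Voom called 6 genes in all and 1 of the further pathway genes, and 102 genes passed an adjusted p under 0.01. The causes were not tested beyond the libraries left out. Library totals moved the median fold change of all genes by -0.03 on the log2 scale. The fewest reads of a member in a library were 118 for Lefty1, in L2, and 120 for Acvr2b, also in L2. No paired analysis was possible because the recovered libraries carry no replicate number.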
